A study of Homo sapiens with 4 samples.

Results

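Genes of lysosomes and of autophagy were examined in SK-N-AS, an established human neuroblastoma cell line, with and without exposure to BG-P400-TAT. The 40 genes were chosen as a list of lysosome and autophagy genes, with no cutoff on their values but with earlier results of these data known. Of the 40, 38 were measured among the 17687 named genes of an Affymetrix whole-transcript array. NEU1, a sialidase, and NPC2, a cholesterol carrier, are not analysed here. Treated cells received BG-P400-TAT at 30 µM for 48 h, control cells received phosphate-buffered saline for the same time and are called untreated, and each group had 2 arrays. All cells came from this 1 line, grown in IMDM with fetal serum. The design text calls the arrays of a group biological replicates without saying which cultures they came from, so the p-values speak only for the variation among 4 arrays, which may be technical. Its 2 intended targets, as the title of the series names them, were norepinephrine transporter function and thyrointegrin αvβ3 receptors.

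Lysosomes are acidic organelles in which hydrolases digest proteins, lipids and glycans delivered by endocytosis or autophagy. A proton pump, the V-ATPase, keeps their lumen acidic, and heavily glycosylated membrane proteins line it. In autophagy the ULK kinase complex starts a membrane sac, ubiquitin-like conjugation attaches ATG8 proteins such as LC3 to it, and the closed autophagosome fuses with a lysosome. TFEB and TFE3 are transcription factors known for binding the CLEAR element, an E-box with CACGTG at its core that lies near the start of many lysosomal genes.

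Because that element is what many lysosomal promoters share, the promoter windows of the listed genes were searched for it. The windows reach from 250 bases before the annotated start to 50 bases after it, were taken from RefSeq (GRCh38.p14), and were found for 34 of the 40 genes, some of which have several starts. TCACGTG, or CACGTGA, which is the same motif on the other strand, lay in a window of 7 of the 34 genes (20.6%), against 4.49% of all 27305 genes in the table and 5.82% of the 14250 that are named on the array. All 7 were among the 16 lysosomal genes with a window, namely LAMP1, MCOLN1, CTSA, CTSD, GAA, NEU1 and ATP6V0D1, and the windows of the 16 autophagy genes held none. A window was found for 16 of the 22 listed lysosomal genes and for all 16 autophagy genes, so the genes without a window were lysosomal. LAMP1 had 6 places, GAA, MCOLN1 and CTSA had 2 each, and CTSD, ATP6V0D1 and NEU1 had 1 each. Since the element is known from many lysosomal promoters, a higher share in a list of such genes is no independent result. A match describes these letters and is not a measured binding site. The stretches just before the start are shown for the 6 measured genes, in lower case with the motif in capitals and each read 5′ to 3′ on the strand of its gene. They are chr13:113297039-113297238 on the plus strand for LAMP1, chr11:1763928-1764027 on the minus strand for CTSD, chr20:45891235-45891334 on the plus strand for CTSA, chr17:80101481-80101580 on the plus strand for GAA, chr19:7522524-7522623 on the plus strand for MCOLN1 and chr16:67481158-67481257 on the minus strand for ATP6V0D1. Each stretch ends at the base before the start, so the sixth place of LAMP1, which spans the start, is not shown whole.
LAMP1: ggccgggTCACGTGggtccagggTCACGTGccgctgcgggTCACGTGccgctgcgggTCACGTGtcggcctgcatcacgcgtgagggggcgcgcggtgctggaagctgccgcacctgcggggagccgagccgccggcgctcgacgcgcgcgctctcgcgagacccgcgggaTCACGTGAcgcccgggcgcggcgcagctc
CTSD: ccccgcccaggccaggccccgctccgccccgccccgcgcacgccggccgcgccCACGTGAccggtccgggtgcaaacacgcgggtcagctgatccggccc
CTSA: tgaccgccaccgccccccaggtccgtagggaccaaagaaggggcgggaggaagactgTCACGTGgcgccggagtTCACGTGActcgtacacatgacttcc
GAA: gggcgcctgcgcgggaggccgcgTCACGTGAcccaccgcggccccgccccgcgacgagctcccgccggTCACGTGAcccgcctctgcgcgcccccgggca
MCOLN1: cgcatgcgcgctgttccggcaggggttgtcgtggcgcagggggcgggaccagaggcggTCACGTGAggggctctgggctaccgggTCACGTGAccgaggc
ATP6V0D1: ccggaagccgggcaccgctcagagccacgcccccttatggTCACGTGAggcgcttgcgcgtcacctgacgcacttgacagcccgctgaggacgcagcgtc
In LAMP1, 4 of the 6 places form a cluster whose first bases lie at -193, -177, -160 and -143 from the start, while in MCOLN1 both places lie within 42 bases of it.

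**Figure D1:**
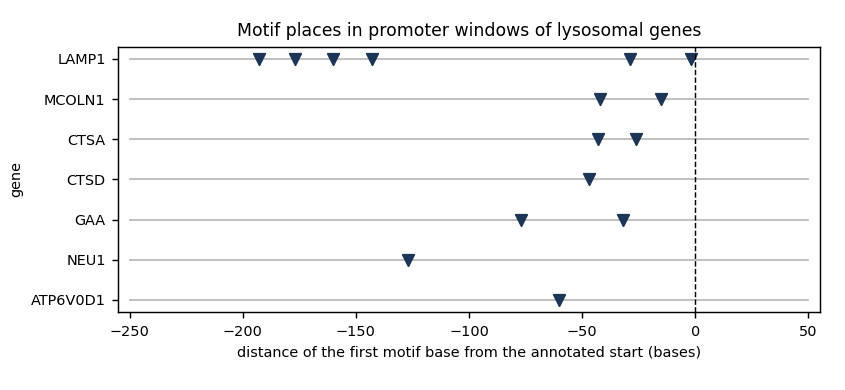
Places of the TCACGTG motif, on either strand, in the promoter windows of 7 lysosomal genes; the horizontal axis gives the distance of the first motif base from the annotated start in bases, grey lines span the window and each triangle is 1 place. LAMP1 has 6 places, 4 of them between -193 and -143, whereas CTSA, CTSD and MCOLN1 have theirs within 50 bases of the start.

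Values are log2 expression per probe set as the authors deposited them, and each gene is represented by its brightest probe set. The 612 negative-control probe sets set the floor: a gene counts as above the negative controls if the mean of its 4 values is higher than 6.96, their 95th percentile. By this limit 33 of the 38 genes were above the controls, with means from 7.76 for TFE3 to 14.52 for CD63. The other 5, CTSZ, TFEB, ULK2, ATG16L1 and GABARAPL1, were below each array's own limit (7.19 to 7.64) on all 4 arrays. No fold is given for these 5, and their log2 differences enter medians and counts over all measured genes and the ranges over alternatives, where they are differences between values at background. Probe sets differ in affinity, so levels are not ranked between genes.

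The arrays as a whole bear on every difference. Untreated replicate 2 stood apart, with a median absolute log2 difference of 0.237 to 0.244 to the other arrays, whose own pairs differed by 0.193 to 0.208. Its log2 values had the smallest SD, 3.239 against 3.311 to 3.323. It had the highest negative-control limit, 7.64 against 7.19 to 7.31, and the fewest probe sets above it, 8808 against 9413 to 9657. Of the named genes above the controls 58.8% had a positive difference, 51.5% without this array and 55.1% to 61% without another. Of the markers of a neuroblastoma line, 8 of 10 adrenergic and 9 of 10 mesenchymal genes were above the negative controls, but DBH and TH, the catecholamine enzymes, were not. The mean log2 level of the adrenergic list was 9.25 to 9.49 untreated and 9.44 to 9.52 treated, and that of the mesenchymal list 9.57 to 9.83 and 9.86 to 9.97. All 4 endothelial markers were below the controls (3.84 to 4.44 over the arrays), and of 4 epithelial markers the keratins KRT8 and KRT18 were above them (list means 6.01 to 6.12 untreated and 6.17 to 6.36 treated). Of 7 leukocyte markers 2 were above, CD68, itself a lysosomal membrane gene, and PTPRC, which encodes CD45 and stood at 12.57 to 12.80 on the 4 arrays. The mean log2 level of the leukocyte list was 6.86 and 7.33 on the untreated and 6.93 and 6.98 on the treated arrays. Genes below the controls enter this mean, such as CD14 (5.88 and 6.97 untreated) and LYZ (3.28 and 4.14 untreated). PTPRC read 12.75 and 12.80 on these arrays. The part of these lists in the lysosomal values was not tested.

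**Figure D2:**
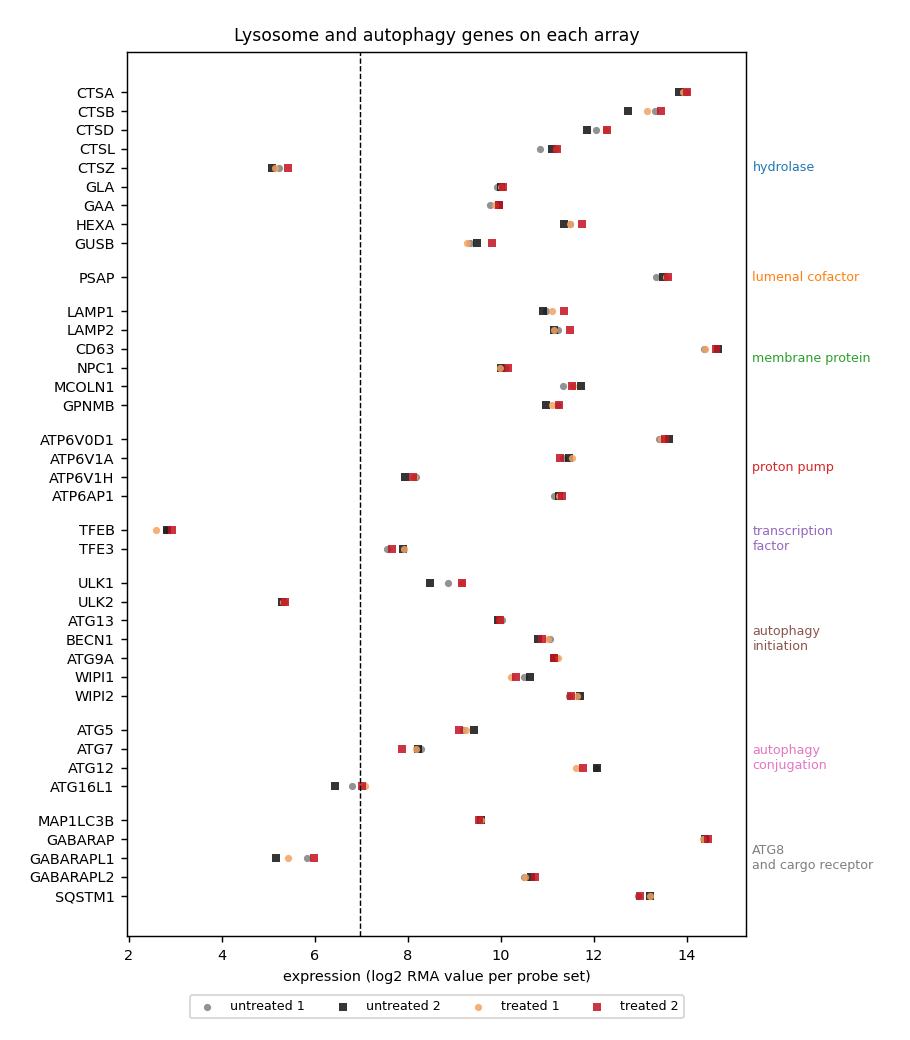
Log2 RMA expression of the 38 measured genes on each array, grouped by role; circles and squares are replicates 1 and 2, grey and black untreated, orange and red treated, and the dashed line is the negative-control limit of 6.96. The 4 symbols of a gene mostly overlap, and 5 genes have means left of the line.

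None of the 38 genes passed the limma test of treated against untreated cells at an adjusted p of 0.05, with adjusted p from 0.948 to 1.00. Over all 21448 probe sets the same test called 0 (0.0%). At an unadjusted p under 0.05 there was 1 gene, ULK1, where 5.08% of all probe sets and 2.4% of the named genes above the negative controls fell. With 2 arrays against 2 an exact two-sided permutation test of 1 gene cannot give a p below 0.333. Among the 33 genes above the negative controls, the 95% interval of the difference lay within 2-fold in both directions for all 33, against 95.7% of the 8722 named genes above them. It lay within 1.5-fold in both directions for 21 of the 33 (63.6%), against 41.7% of those genes. The median absolute log2 difference of the 33 was 0.065, and that of the 8722 was 0.125. The 33 and the 8722 were not matched for level (means of 7.76 to 14.52 and of 6.96 to 17.92), so these shares and medians do not compare genes of like brightness.

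Positive differences were counted by role. Of the 19 lysosomal genes above the negative controls 17 had a positive difference, treated minus untreated, and of the 13 autophagy genes 6 had one. The difference between these counts was not tested. The lysosomal count depended on the treated array. With treated replicate 1, 11 of the 19 exceeded untreated replicate 1, and 11 exceeded untreated replicate 2. With treated replicate 2 these numbers were 17 and 15. Of the 8722 named genes above the controls, 4694 and 5498 were higher with treated replicate 1, and 4342 and 5097 with treated replicate 2. The groups overlapped in 15 of the 19 lysosomal genes and in 5884 of the 8722. Over all 33 the count of positive differences was 24 (72.7%), where 58.8% of the named genes above the controls were positive. It was 18 after a second quantile normalization and 17 after cyclic loess, settings in which 50.4% and 50.7% of those named genes were positive, and 19 to 21 with an array left out. In 5 of the 33 genes (15.2%) both treated arrays lay above both untreated arrays, against 21.2% of the named genes above the controls, and in 3 (9.09%) both lay below, against 11.4%. The difference exceeded the gap within either group in 6 genes (18.2%), against 20.6%. These shares lie near the background.

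**Figure D3:**
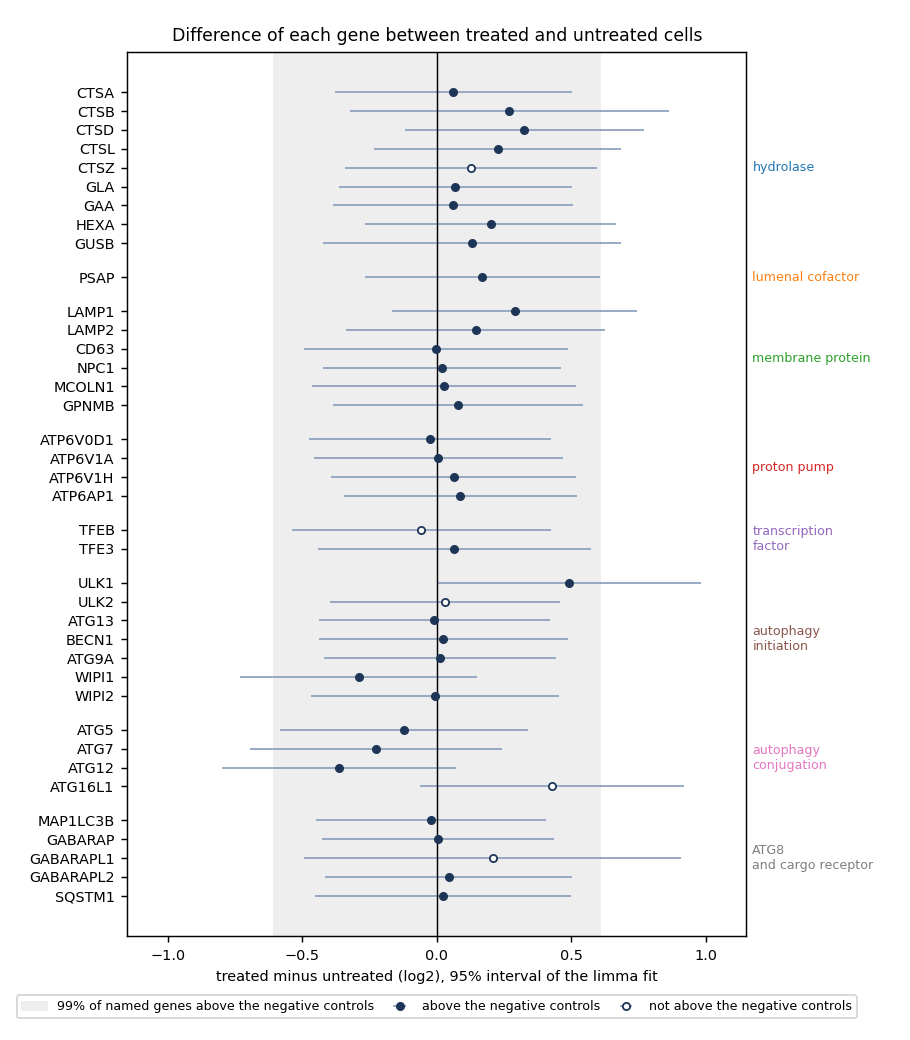
Treated minus untreated log2 difference of each of the 38 genes with its 95% interval from the limma fit; filled points are above the negative controls, open points are not, and the grey band holds 99% of the named genes above the controls. The interval of ULK1 is the 1 that does not include 0, and ATG12 and WIPI1 have the lowest values.

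All 9 measured hydrolases had a positive difference, with a median of 0.13 and a range from 0.060 for GAA to 0.33 for CTSD, and none passed the test. Over the 8 above the negative controls the median was 0.17. All 8 were positive, where 58.8% of the named genes above the controls were. Hydrolases of the wider list described at the end did not all share this sign. Of the 23 above the controls 16 (69.6%) were positive and 7 negative, with a median of 0.061. CTSD, the aspartic protease cathepsin D, stood at 12.05 and 11.85 on the untreated and 12.26 and 12.29 on the treated arrays. Both treated arrays of CTSD lay above both untreated ones, by at least 0.21. CTSD thus had a log2 difference of 0.33 (95% interval -0.12 to 0.77; fold 1.25; limma adjusted p 0.948). CTSL, the cysteine protease cathepsin L, read 10.84 and 11.11 untreated and 11.19 and 11.22 treated. Its groups did not overlap, but by a margin of 0.075, and the log2 difference of 0.23 (interval -0.23 to 0.69) was 0.091 without untreated replicate 1 and 0.36 without untreated replicate 2. CTSB, cathepsin B, read 13.32 and 12.74 untreated and 13.16 and 13.45 treated. The untreated arrays of CTSB were 0.58 apart, more than its log2 difference of 0.27 (interval -0.32 to 0.86), which was -0.021 without untreated replicate 2 and 0.56 without untreated replicate 1.

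The remaining hydrolases overlapped between the groups. HEXA, a subunit of β-hexosaminidase, had a log2 difference of 0.20 (interval -0.27 to 0.67), which was 0.065 without treated replicate 2 and 0.34 without treated replicate 1. GUSB, β-glucuronidase, differed by 0.13 (interval -0.42 to 0.68), and its treated arrays lay 0.53 apart, at 9.28 and 9.81. CTSA, a carboxypeptidase that protects sialidase, GLA, α-galactosidase, and GAA, the acid glucosidase that degrades glycogen, had log2 differences of 0.062, 0.069 and 0.060, with intervals inside 1.5-fold. CTSZ, cathepsin Z, read 5.08 to 5.41 and was below the negative controls. PSAP, the precursor of the saposins that activate sphingolipid hydrolases, read 13.33 and 13.49 untreated and 13.56 and 13.60 treated. Its groups did not overlap, by a margin of 0.069, and its log2 difference was 0.17 (interval -0.27 to 0.61), or 0.090 without untreated replicate 1.

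The hydrolase values depended on which treated array was used. The median over the 8 hydrolases above the negative controls was 0.045 and 0.083 for treated replicate 1 minus untreated replicates 1 and 2, and 0.22 and 0.26 for treated replicate 2. All 8 were higher on treated replicate 2 than on either untreated array, while 4 and 5 of the 8 were higher on treated replicate 1 than on untreated replicates 1 and 2. Of the 8722 named genes above the controls, 4342 and 5097 were higher with treated replicate 2, and 4694 and 5498 with treated replicate 1. Over all named genes above the controls the corresponding medians were 0.020 and 0.083 for treated replicate 1, and -0.0015 and 0.057 for treated replicate 2. The median of the 9 measured hydrolases was 0.26 without treated replicate 1 and 0.041 without treated replicate 2.

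Membrane proteins of the lysosome had a median log2 difference of 0.053 over 6 genes, 5 of them positive. LAMP1, a major glycoprotein of the lysosomal membrane with 6 motif places in its promoter window, read 10.98 and 10.91 untreated and 11.11 and 11.35 treated. Both treated arrays of LAMP1 were above both untreated ones, by at least 0.13. Its means were 10.94 ± 0.051 (SD, n = 2) and 11.23 ± 0.17 (SD, n = 2), a log2 difference of 0.29 (interval -0.17 to 0.75; limma adjusted p 0.949). It was 0.17 without treated replicate 2. LAMP2, its relative, which also serves chaperone-mediated autophagy, read 11.22 and 11.14 untreated and 11.15 and 11.49 treated. For LAMP2 treated replicate 2 alone was outside the untreated values, and the difference of 0.14 (interval -0.34 to 0.63) was -0.026 without that array and 0.32 without treated replicate 1.

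The other membrane genes had smaller values. CD63, a tetraspanin of late endosomes, had a log2 difference of -0.0027 (interval -0.49 to 0.49), NPC1, the cholesterol exporter, 0.020 (interval -0.42 to 0.46), and MCOLN1, the lysosomal calcium channel TRPML1, 0.027 (interval -0.46 to 0.52). GPNMB, a transmembrane glycoprotein, differed by 0.079 (interval -0.39 to 0.54). The sign of each of these 4 genes turned when some single array was left out. As with the hydrolases, the membrane median over the 6 genes was -0.014 and 0.0015 for treated replicate 1 minus untreated replicates 1 and 2, and 0.24 and 0.22 for treated replicate 2, and it was -0.012 without treated replicate 2 over both untreated arrays.

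**Figure D4:**
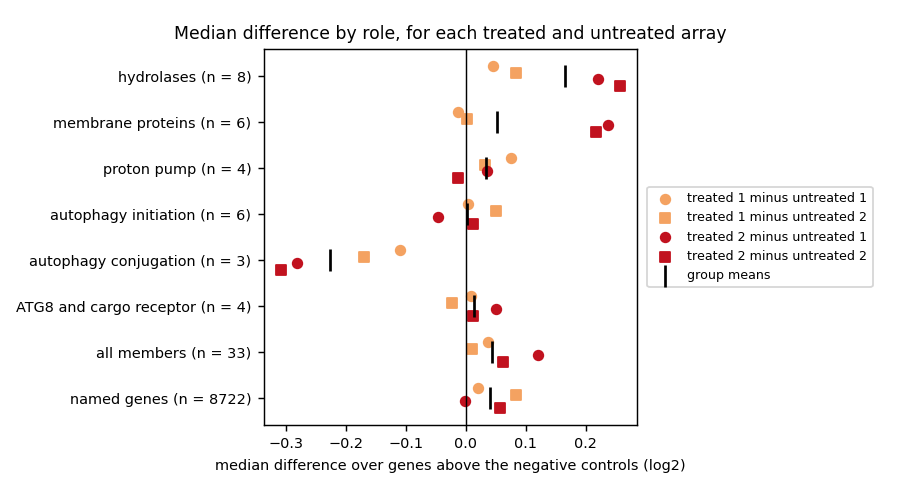
Median log2 difference over the genes above the negative controls, by role, for each treated array minus each untreated array; orange and red are treated replicates 1 and 2, circles and squares untreated replicates 1 and 2, and the black bar uses the group means. For hydrolases and membrane proteins the red points (0.22 to 0.26) lie to the right of the orange ones (-0.014 to 0.083), and for conjugation genes all 4 points lie below 0.

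The 4 proton pump genes had differences from -0.026 to 0.087, and the groups overlapped in each of them. ATP6AP1, an accessory subunit of the V-ATPase, read 11.14 and 11.25 untreated and 11.25 and 11.31 treated, a log2 difference of 0.087 (interval -0.35 to 0.52). ATP6V1H, a regulatory subunit of the cytosolic sector, read 8.18 and 7.93 untreated and 8.14 and 8.10 treated, a difference of 0.063 (interval -0.39 to 0.52). ATP6V1A, the catalytic subunit, differed by 0.0054 (interval -0.46 to 0.47), and ATP6V0D1, of the membrane sector, by -0.026 (interval -0.48 to 0.42). All 4 intervals lay within 1.5-fold in both directions. The median of the 4 was 0.034, but -0.016 without untreated replicate 1. A second quantile normalization gave -0.0048 and cyclic loess -0.0055.

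Of the transcription factors, TFEB was read at 2.802 and 2.805 untreated and 2.57 and 2.92 treated, below the negative controls on every array. TFE3 was above them on all 4 arrays, at 7.55 and 7.90 untreated and 7.91 and 7.67 treated. The groups of TFE3 overlapped, with a log2 difference of 0.065 (interval -0.44 to 0.57). The 6 measured genes whose windows hold the motif had log2 differences from -0.026 for ATP6V0D1 to 0.33 for CTSD, with a median of 0.061. The other 21 genes above the controls with a window had a median of 0.020. Role differed too, since the 6 are all lysosomal and the 21 include the 13 autophagy genes. The lysosomal genes among the 21 had -0.0027 (CD63), 0.020 (NPC1), 0.069 (GLA), 0.079 (GPNMB), 0.087 (ATP6AP1), 0.13 (GUSB) and 0.23 (CTSL). Motif and role were not separated. Over the named genes above the controls, the median was 0.052 for the 579 with the motif and 0.042 for the 6748 without it.

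Genes that start autophagy held the member with the smallest unadjusted p and 1 of the 3 whose treated arrays were both lower. ULK1, the kinase that initiates autophagy, read 8.86 and 8.48 untreated and 9.16 and 9.16 treated. The treated arrays of ULK1 were thus 0.0019 apart and the untreated arrays 0.38, and both treated values lay above both untreated ones by at least 0.30. The log2 difference of ULK1 was 0.49 (interval 0.0021 to 0.98), a fold of 1.41, with an unadjusted limma p of 0.0493 and an adjusted p of 0.948, so it did not pass. It was 0.30 without untreated replicate 2 and 0.68 without untreated replicate 1, and the adjusted p ranged from 0.36 to 1.00 over the alternatives. WIPI1, which binds phosphoinositides on the forming membrane, read 10.50 and 10.64 untreated and 10.22 and 10.34 treated. Both treated arrays of WIPI1 were below both untreated ones, by at least 0.17, and its log2 difference was -0.29 (interval -0.73 to 0.15; limma adjusted p 0.948).

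For the other initiation genes above the controls the groups overlapped. WIPI2, the relative of WIPI1 that recruits the conjugation machinery, had a log2 difference of -0.0066 (interval -0.47 to 0.45). ATG13, a partner of ULK1 in its complex, had -0.0089 (interval -0.44 to 0.42), BECN1, of the lipid kinase complex that nucleates the membrane, 0.025 (interval -0.44 to 0.49), and ATG9A, a lipid scramblase of autophagy vesicles, 0.011 (interval -0.42 to 0.44). All 4 intervals lay within 1.5-fold in both directions. ULK2, the second ULK kinase, read 5.28 to 5.35 and was below the negative controls.

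Of the 4 conjugation genes, the 3 above the negative controls had negative differences and the fourth, ATG16L1, was dim. Conjugation genes of the wider list described at the end did not share this sign, with 3 of 6 positive and a median of 0.040 over those above the controls. ATG12, the ubiquitin-like protein that is attached to ATG5, read 12.05 and 12.07 untreated and 11.63 and 11.77 treated. Both treated arrays of ATG12 lay below both untreated ones by at least 0.28, and the untreated arrays were 0.017 apart. The log2 difference was -0.36 (interval -0.80 to 0.073; fold 0.778; limma adjusted p 0.948), and from -0.43 to -0.29 with an array left out. ATG7, the enzyme that activates ATG12 and the ATG8 proteins, read 8.28 and 8.21 untreated and 8.17 and 7.87 treated. Its groups did not overlap, by a margin of 0.045, and the difference of -0.23 (interval -0.69 to 0.24) was -0.078 without treated replicate 2 and -0.38 without treated replicate 1. ATG5, the acceptor of ATG12, had overlapping groups and a log2 difference of -0.12 (interval -0.58 to 0.34), which was -0.0038 without untreated replicate 2 and -0.24 without untreated replicate 1. ATG16L1, which joins ATG5 and ATG12 in one complex, read 6.80 and 6.43 untreated and 7.083 and 7.005 treated, below each array's own limit. The median difference of the 3 genes above the controls was -0.23. Over all 4 it was -0.17, and it was -0.065 without treated replicate 2.

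Genes of the ATG8 proteins and of the cargo receptor SQSTM1 had differences from -0.020 to 0.044 where they were above the negative controls. MAP1LC3B, which encodes LC3B, read 9.58 and 9.56 untreated and 9.58 and 9.52 treated, a log2 difference of -0.020 (interval -0.45 to 0.41). GABARAP read 14.41 and 14.40 untreated and 14.35 and 14.46 treated, a difference of 0.0038 (interval -0.43 to 0.44). GABARAPL2 read 10.50 and 10.66 untreated and 10.51 and 10.73 treated, a difference of 0.044 (interval -0.42 to 0.50). For these 3 genes the arrays of both groups overlapped and the intervals lay within 1.5-fold in both directions. MAP1LC3B has a near-identical copy, MAP1LC3B2, on the array, so their signals may be shared. SQSTM1, which encodes p62, the receptor that brings ubiquitinated cargo to LC3, had 0.023 (interval -0.45 to 0.50). GABARAPL1 read 5.84 and 5.17 untreated and 5.43 and 5.99 treated, all below the negative controls. Over all 16 autophagy genes the median difference was 0.0075, and over the 13 above the controls it was -0.0066.

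A wider list of lysosome and autophagy genes, which leaves out the 40 and was also chosen with earlier results known, was read in the same fit. Of its 145 genes 128 were measured and 98 were above the negative controls, and 0 of the 128 passed in either direction at a limma adjusted p under 0.05. Since the limit applies to the mean, some of the 98 were below an array's own limit, such as ATP6V1G3 on all 4 arrays. At an unadjusted limma p under 0.05 there were 2. CLCN7, the chloride and proton exchanger of the lysosomal membrane, read 8.61 and 8.38 untreated and 8.94 and 9.22 treated. Its log2 difference was 0.58 (interval 0.10 to 1.06; limma adjusted p 0.948), with no overlap between the groups. ATG16L2 was below the negative controls, at 4.69 and 4.76 untreated and 5.40 and 5.14 treated. The next 4 by p were ATP6V0C, the proteolipid ring subunit of the V-ATPase (0.43), TPCN1, an endolysosomal cation channel (0.55), FNIP1, a folliculin partner in nutrient signalling (-0.44), and SMPD1, acid sphingomyelinase (0.42). With an array left out, TPCN1 ranged from 0.23 to 0.88, FNIP1 from -0.62 to -0.26 and SMPD1 from 0.25 to 0.59. Of the 98 genes above the controls 65 (66.3%) had a positive difference, against 58.8% of the named genes above the controls. In 29 (29.6%) both treated arrays lay above both untreated ones, against 21.2%, and in 8 (8.16%) both lay below, against 11.4%. The median over the 128 was 0.081, 0.046 without treated replicate 1, 0.0538 after a second quantile normalization, 0.0497 after cyclic loess and 0.084 after median centring.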

How the data were processed

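Gene expression was measured in total RNA of SK-N-AS cells on 4 arrays, 2 per group. The authors deposited log2 expression values, 1 per probe set. As tools, the submitters' processing notes list Transcriptome Analysis Console 4.0.1.36 and RMA. A genome build for the probe sets was not given in the sources used here. The arrays did not share 1 distribution (SD of log2 values 3.24 to 3.32 over the tested probe sets), so further normalizations were tried. The log2 scale was read from the values, and no scanner files were used, so background correction could not be varied. Of 24351 probe sets 2903 controls were left out and 21448 tested. The platform annotation gave 17709 probe sets 1 symbol, 0 several and 3739 none, and the brightest probe set of a gene was used.

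The group difference was fitted in limma 3.58.1 (lmFit, eBayes; R 4.3.3) without covariates and tested two-sided, with Benjamini-Hochberg adjustment over all tested probe sets at 0.05 (2 residual and 4.9 prior degrees of freedom). The fit was also run on simulated arrays with normal noise whose variances were drawn from the fit itself. Those arrays lacked the differences in spread between the real arrays, so that run does not bear on them. The genes, roles and lists were chosen with earlier results of these data known. Array values are given for genes whose groups do not overlap, the 2 with the largest differences per role, the transcription factors and the ATG8 genes, and for the wider list the 6 genes with the smallest p are named. Same-numbered arrays did not deviate together (r = -0.00085 over the tested probe sets). Alternatives were 3 normalizations, 2 filters on dim probe sets, trended and robust moderation, a replicate block, omission of each array in turn, and the mean of a gene's probe sets. The number of arrays limits the precision.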

Additional observations from a re-analysis of the deposited data

How the results depend on the processing

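No array, normalization, filter, moderation or block brought any of the 38 genes past an adjusted p of 0.05: the count was 0 in all 13 alternatives, as it was over all probe sets and the wider list, with smallest adjusted p over the 38 genes of 0.36. A replicate block cannot change the differences in this balanced design, and trended or robust moderation cannot either. In these 3 settings the 24 positive genes of the 33 above the controls were thus fixed in advance, and only the p-values could move. With the block 0 were called. The positive count was 17 to 25 over the alternatives. Both treated arrays lay below both untreated ones in 5 of the 33 genes (15.2%) rather than 3 after quantile normalization and after cyclic loess, where 16% and 15.8% of the named genes above the controls did. With an array left out, which sets 2 arrays against 1, 9 to 17 of the 33 lay above and 6 to 9 below. Without untreated replicate 1, 39.4% lay above, against 47.4% of those named genes, and 27.3% below, against 26%. Without untreated replicate 2 the shares were 45.5% against 35.7% above and 18.2% against 32.1% below. Without treated replicate 1 they were 51.5% against 36.2% and 21.2% against 28%. Without treated replicate 2 they were 27.3% against 38.2% and 18.2% against 21.4%.

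Omitting 1 array gave medians of 0.015 to 0.103 for all 38 genes, 0.041 to 0.262 for hydrolases, -0.012 to 0.132 for membrane proteins, -0.016 to 0.077 for the proton pump and -0.0385 to -0.00022 for autophagy genes. After quantile normalization and cyclic loess the proton pump median was -0.00479 and -0.00547 and the autophagy median -0.0258 and -0.0246. The autophagy median was -0.0066 for genes above the controls and -0.00138 for probe sets above the overall median. The cause was not tested.

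Of the 38 genes 9 changed sign under a normalization. After quantile normalization the differences were -0.0207 for NPC1, -0.00053 for MCOLN1, -0.0216 for ATP6V1A, -0.0094 for BECN1, -0.0207 for ATG9A and -0.0311 for GABARAP. After cyclic loess they were -0.0248 for NPC1, -0.0115 for MCOLN1, -0.0333 for ATP6V1A, 0.0288 for TFEB, -0.0161 for BECN1, -0.0286 for ATG9A, -0.0206 for GABARAP and -0.0075 for SQSTM1. Median centring gave 0.00017 for CD63. Leaving out single arrays turned the sign of 24 genes, whose ranges were CTSA -0.016 to 0.14, CTSB -0.021 to 0.56, CTSZ -0.0053 to 0.26, GAA -0.036 to 0.15, GUSB -0.14 to 0.40, LAMP2 -0.026 to 0.32, CD63 -0.16 to 0.15, NPC1 -0.062 to 0.10, MCOLN1 -0.17 to 0.22, GPNMB -0.049 to 0.21, ATP6V0D1 -0.13 to 0.081, ATP6V1A -0.12 to 0.13, ATP6V1H -0.061 to 0.19, TFEB -0.23 to 0.12, TFE3 -0.11 to 0.24, ATG13 -0.048 to 0.0304, BECN1 -0.099 to 0.15, ATG9A -0.035 to 0.057, WIPI2 -0.13 to 0.11, MAP1LC3B -0.0501 to 0.0091, GABARAP -0.051 to 0.058, GABARAPL1 -0.13 to 0.54, GABARAPL2 -0.064 to 0.15 and SQSTM1 -0.11 to 0.15. The other 14 kept their sign in each of these 4 settings.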

Other observations

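Among V-ATPase subunits outside the 4 described in the report, 15 of the 18 measured were above the negative controls and 12 of the 15 (80.0%) had a positive log2 difference, against 58.8% of the named genes above the controls. The 15 include ATP6V1G3 (mean 7.16, difference -0.080), which was below each array's own limit on all 4 arrays. ATP6V1G2 (difference 0.22), also among them, was above it on 3 arrays. In 6 of the 15 both treated arrays lay above both untreated arrays, against 21.2% of those named genes, and in 0 both lay below, against 11.4%. The tests gave 0 of 18 past a limma adjusted p under 0.05 and 0 at an unadjusted p under 0.05. ATP6V0C read 13.68 and 13.55 untreated and 14.03 and 14.04 treated, a log2 difference of 0.43 (95% interval -0.0057 to 0.86). ATP6V1B2, a nucleotide-binding subunit, had 0.34 with overlapping groups. The median over the 18 was 0.103, from 0.044 to 0.123 with an array left out, and 0.071 after quantile normalization or cyclic loess. These subunits were singled out after their values were seen.

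Promoter windows of the wider list held the TCACGTG motif in 23 of 111 genes with a window (20.7%). Over that list and the 40 genes together, 18 of the 24 genes above the controls with the motif (75.0%) had a positive difference, with a median of 0.102. Without it 52 of the 81 (64.2%) had one, with a median of 0.046. Of the named genes above the controls 61.8% of the 579 with the motif and 59.1% of the 6748 without it were positive. Their medians were 0.052 and 0.042. Among the 40 genes no autophagy gene held the motif, so motif and role were not separated. The difference between the medians of 0.102 and 0.046 was not tested.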
